A study of Mus musculus with 6 samples.

Results

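The genes described here encode the subunits of the oxidative phosphorylation system of the mouse. They were the protein-coding entries of the deposited gene table whose symbols begin with Nduf (without the Ndufaf assembly factors), Sdha to Sdhd, Uqcr, Cox4 to Cox8, Atp5, mt-Nd, mt-Co, mt-Cytb or mt-Atp. This gave 99 entries of 55414 genes, for 98 symbols, because Atp5o has a second identifier. Of these, 86 are encoded in the nucleus and 13 in mitochondrial DNA. Complex I has 43 entries, complex II 4, complex III 9, complex IV 23 and complex V 20, with Ndufa4 and its paralog Ndufa4l2 placed in complex IV, where the Ndufa4 protein is found. A filter on low counts left 95 entries for the tests, 82 nuclear and all 13 mitochondrial. Those left out were Cox7b2, at 0 in every library, Cox8b and Cox8c, each at under 0.05 CPM (counts scaled to library size) in any library, and the second Atp5o identifier, which had 2541 counts in 1 T4 library and 0 in the others.

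RNA came from mouse CD8+ T cells of OT-I genotype, whose transgenic receptor is specific for an ovalbumin peptide, from spleen and lymph nodes per the sample labels. One group was taken 4 days after stimulation with N4, the natural ovalbumin peptide. Another was taken 4 days after T4, an altered peptide that triggers the receptor more weakly. Both peptides came with anti-OX40 and anti-41BB, antibodies that give costimulation. Naive OT-I cells were the unstimulated group. Each group had 2 libraries. Every group carries the OT-I receptor, so the data concern 1 receptor specificity, and the labels give no age or sex of the mice and no sorting gate.

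Oxidative phosphorylation moves electrons from NADH and succinate through complexes I to IV to oxygen, pumps protons across the inner mitochondrial membrane, and lets complex V use that gradient to make ATP. Mitochondrial DNA encodes membrane subunits of complexes I, III, IV and V. The nucleus encodes all of complex II and every other subunit, which must be imported, so that assembly draws on both genomes. Naive T cells are small resting cells, and activated CD8+ T cells enlarge, divide and build mitochondrial mass.

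The libraries held 269033066 to 335968843 estimated counts. The 8 CD8 T cell markers were present in all libraries, with summed CPM of 4028 and 4047 in N4 libraries, 5502 and 5557 in T4, and 6273 to 7698 in naive libraries. Markers of other cells also differed. The summed CPM of 12 macrophage and monocyte markers was 12.4 to 17.7 in N4 libraries, 333 to 370 in T4 libraries and 2257 to 3111 in naive libraries, and that of 7 red cell markers was 231 to 347 in N4 libraries, 8852 to 10424 in T4 libraries and 4505 to 7691 in naive libraries. The 8 neutrophil markers summed to 24.6 to 39.0 CPM in N4 and 6.90 to 17.3 CPM in T4 libraries, but to 3185 CPM in naive library 1 and 21033 CPM in naive library 2. The markers of dividing cells (4 genes) summed to 288 to 336 CPM in N4, 211 to 245 CPM in T4 and 68.2 to 72.5 CPM in naive libraries. The part of these other cells in the results was not tested. In such bulk samples, a change in the cells present and a change in RNA per cell cannot be told apart.

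As a share of all counts in a library, the nuclear-encoded subunits were highest after N4 and the mitochondrially encoded subunits lowest after T4. Nuclear-encoded subunits took 7.39% and 7.84% of counts in N4 libraries, 5.63% and 5.99% in T4 libraries and 4.39% and 5.53% in naive libraries. The 3 groups did not overlap in this share, though the second naive library lay close to the T4 libraries. The 13 mitochondrial genes took 2.90% and 3.47% of counts in N4 libraries, 1.89% and 1.77% in T4 libraries and 2.71% and 2.68% in naive libraries. T4 lay below both other groups, and the N4 libraries lay above the naive ones by less than they differed from each other. The ratio of nuclear to mitochondrial subunit counts was 2.55 and 2.26 in N4 libraries, 2.98 and 3.37 in T4 libraries and 1.62 and 2.06 in naive libraries, again without overlap. With 2 libraries a group an exact permutation test cannot give a two-sided p below 0.33, and these shares are given without a test. The 2 mitochondrial ribosomal RNAs, which are not members, took 0.368% and 0.448% of counts in N4 libraries, 0.320% and 0.320% in T4 libraries and 0.391% and 0.399% in naive libraries.

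**Figure D1:**
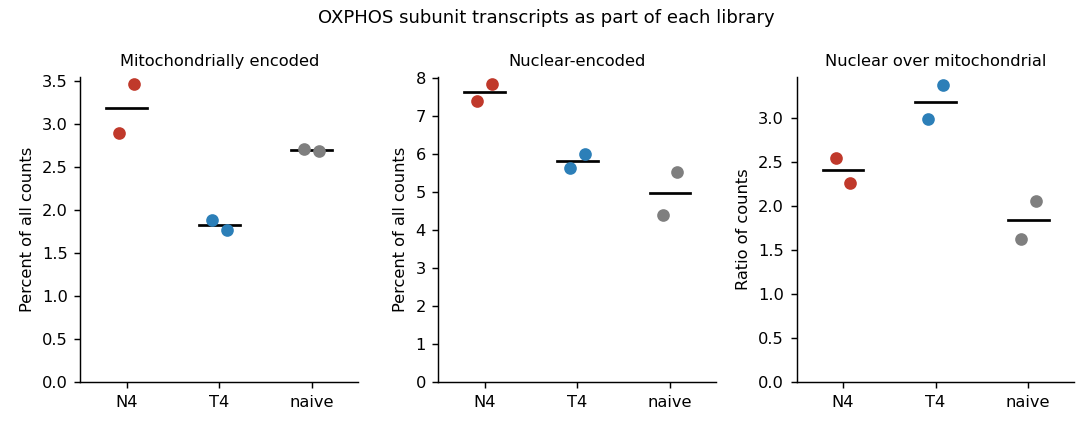
Share of all counts in the 13 mitochondrially encoded and 86 nuclear-encoded subunit entries (percent, left and middle) and the ratio of nuclear to mitochondrial counts (right) for N4, T4 and naive. Points are libraries and bars are means of 2. The T4 libraries, at 1.89% and 1.77%, are lowest for the mitochondrial genes, and the naive libraries, at 4.39% and 5.53%, are lowest for the nuclear genes.

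Passed, called, rose and fell refer below to 1 test across all 23003 genes kept (edgeR quasi-likelihood, Benjamini-Hochberg adjusted p under 0.05), except where a GC and length correction is named. In that test 2 members rose and 4 fell in N4 against naive, against 4.87% of all genes called higher and 7.18% called lower. The 4 include Cox4i2, which was at 0 in N4 and passed the filter on low counts only through the other groups. In N4 against T4, 13 members rose and 4 fell, against 3.48% and 4.47% of all genes. Of the 13 that rose, 10 were mitochondrial genes. No member was called in T4 against naive, where 0.0826% of all genes were called higher and 0.0348% lower. In that comparison edgeR gave 12 members an unadjusted p under 0.05, and DESeq2 called 1 higher and 6 lower. The unadjusted p was under 0.05 by edgeR for 54 members in N4 against naive and 68 in N4 against T4. The median log2 fold change of the 82 nuclear members tested was 0.94 in N4 against naive, -0.19 in T4 against naive and 1.18 in N4 against T4, beside -0.09, 0.00 and -0.20 for all genes tested.

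These values use TMM scaling, whose factors were 0.821 and 0.641 in N4 libraries, 1.36 and 1.28 in T4 libraries and 1.31 and 0.833 in naive libraries. With library size scaling the median of all genes moved to -0.65 in N4 against naive, 0.30 in T4 against naive and -1.05 in N4 against T4, and the nuclear members' median in N4 against T4 was then 0.30, still above that of all genes. Leaving out either N4 library or either T4 library left no member called in N4 against T4, and leaving out naive library 1 or 2 gave 66 and 62 members called higher. In N4 against naive, 1 member was called higher without N4 library 1, T4 library 1 or T4 library 2 and 0 without N4 library 2. Those called lower numbered 0 without either N4 library and 1 without either T4 library.

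**Figure D2:**
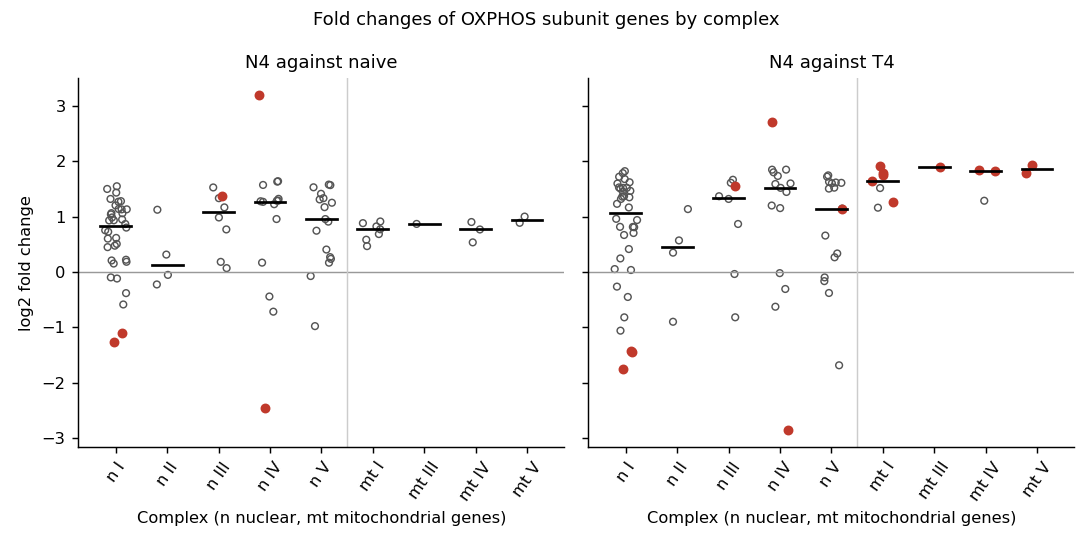
Log2 fold change (vertical axis) of each tested subunit gene in N4 against naive (left) and N4 against T4 (right), by complex and by nuclear (n) or mitochondrial (mt) gene. Filled points passed the test, bars are medians of all tested members of the column, and Cox4i2 (one of the 4 called lower in N4 against naive) and Ndufa4l2, both under 1 CPM in every library, are not drawn. In N4 against T4 all 13 mitochondrial genes lie above 0, while nuclear genes spread on both sides.

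Every one of the 13 mitochondrial genes had a positive fold change in N4 against T4 (median 1.78) and in N4 against naive (0.82), and a negative one in T4 against naive (-0.94). After the correction for GC content and length described below, mt-Nd6 changed sign in N4 against T4 (-0.10) and in T4 against naive (0.06), and mt-Nd2, mt-Nd3, mt-Nd4l, mt-Nd6 and mt-Atp8 were below 0 in N4 against naive. With library size scaling the medians were 0.89 in N4 against T4 and 0.30 in N4 against naive, each above that of all genes. The 10 that rose in N4 against T4 were mt-Nd1, mt-Nd3, mt-Nd4, mt-Nd4l, mt-Nd5, mt-Cytb, mt-Co2, mt-Co3, mt-Atp6 and mt-Atp8. None of the 13 passed in either comparison with naive cells by edgeR, where 8 had an unadjusted p under 0.05 in N4 against naive and 10 in T4 against naive. DESeq2 called 2 of them higher in N4 against naive and 6 lower in T4 against naive.

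For complex I, whose 7 mitochondrial subunits form the proton-pumping membrane arm, mt-Nd1 had 3359 and 4828 CPM in N4 libraries, 1082 and 1100 CPM in T4 libraries and 1895 and 2734 CPM in naive libraries. Its log2 fold change in N4 against T4 was 1.91 ± 0.33 (SE, n = 2 libraries a group, edgeR quasi-likelihood adjusted p = 0.032). mt-Nd2 had 660 and 988 CPM in N4, 274 and 302 CPM in T4 and 435 and 757 CPM in naive libraries, and did not pass (1.51 ± 0.37, edgeR adjusted p = 0.059). For both genes the T4 libraries were lowest and close together, and the libraries within N4 and within naive were further apart. N4 and naive overlapped for mt-Nd2 but not for mt-Nd1. mt-Nd4 was measured at 1177 and 1707 CPM in N4, 461 and 459 CPM in T4 and 747 and 1179 CPM in naive libraries, so that N4 and naive overlapped. mt-Nd5 was measured at 350 and 484 CPM in N4, 172 and 174 CPM in T4 and 200 and 253 CPM in naive libraries. mt-Nd6, the subunit gene on the other strand of mitochondrial DNA, had 133 and 175 CPM in N4, 66.6 and 70.9 CPM in T4 and 76.0 and 104 CPM in naive libraries (N4 against T4 1.16 ± 0.28, edgeR adjusted p = 0.056). mt-Nd5 and mt-Nd6 lie on opposite strands and their ends overlap by 2.70% of mt-Nd6, and the library kit does not mark strand. In T4 against naive these 2 genes had the smallest differences of the 13, both at -0.39, beside -1.08 for mt-Nd1. The short genes mt-Nd3 and mt-Nd4l were at 155 and 216 CPM and 136 and 201 CPM in N4 libraries, and at 53.3 and 56.4 CPM and 49.8 and 47.5 CPM in T4 libraries.

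mt-Cytb, the cytochrome b of complex III, had 6176 and 9398 CPM in N4, 2137 and 2037 CPM in T4 and 3546 and 4991 CPM in naive libraries, and rose in N4 against T4 (1.90 ± 0.35, edgeR adjusted p = 0.035). In complex IV, mt-Co1, the subunit that reduces oxygen, had a smaller difference between N4 and T4 than its partners without that correction. It had 7156 and 11408 CPM in N4, 3779 and 3838 CPM in T4 and 4869 and 7947 CPM in naive libraries, and did not pass (1.29 ± 0.38, edgeR adjusted p = 0.089). mt-Co3 had 7919 and 12193 CPM in N4, 2895 and 2791 CPM in T4 and 4498 and 7318 CPM in naive libraries (1.82 ± 0.38, edgeR adjusted p = 0.044). mt-Co2, which takes electrons from cytochrome c, was called as well (1.84 ± 0.38, edgeR adjusted p = 0.043). Within the counts of the 13 genes, mt-Co1 made up 20.2% and 21.1% in N4 libraries, 27.3% and 27.8% in T4 libraries and 23.4% and 24.7% in naive libraries, whereas mt-Co3 made up 22.4% and 22.6% in N4 libraries, 20.9% and 20.2% in T4 libraries and 21.7% and 22.7% in naive libraries. The mt-Co1 part thus ran from lowest in N4 to highest in T4 with no overlap between groups. Scaling between libraries does not enter this split, but GC content and length do. After the correction for both, the log2 fold change in N4 against T4 was 0.96 for mt-Co1, 0.97 for mt-Co3 and 1.00 for mt-Co2, and in T4 against naive it was -0.66, -0.70 and -0.60 in the same order.

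In complex V, mt-Atp6, the membrane subunit of the proton channel, had 4137 and 6134 CPM in N4, 1487 and 1498 CPM in T4 and 2228 and 3325 CPM in naive libraries (N4 against T4 1.78 ± 0.35, edgeR adjusted p = 0.039). mt-Atp8, a small subunit beside it, had 678 and 1048 CPM in N4, 224 and 227 CPM in T4 and 360 and 503 CPM in naive libraries, and its log2 fold change of 1.94 ± 0.33 in N4 against T4 was the highest of the 13 (edgeR adjusted p = 0.031). After the GC and length correction it was 0.17 ± 0.24 (edgeR adjusted p = 0.69), and mt-Cytb was then the highest, at 1.47. Both genes are read from 1 transcript and share bases, so their counts are not independent. The mt-Atp8 gene is shown because its last 43 bases, in capitals, are also the start of mt-Atp6 (GRCm38, plus strand, chrM:7766-7969).
mt-Atp8: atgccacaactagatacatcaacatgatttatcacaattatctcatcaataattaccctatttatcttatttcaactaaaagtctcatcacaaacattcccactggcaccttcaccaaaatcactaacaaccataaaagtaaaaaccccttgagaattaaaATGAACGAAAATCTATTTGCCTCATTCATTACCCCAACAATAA

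**Figure D3:**
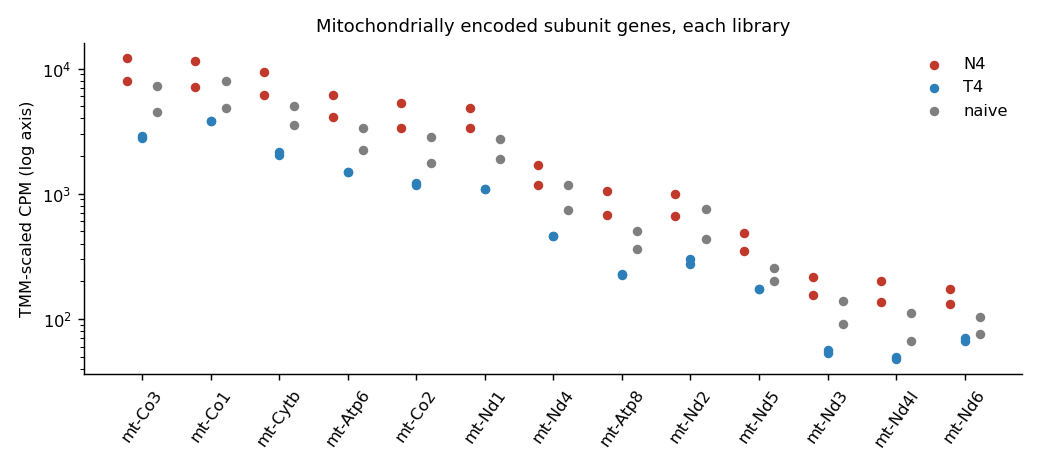
TMM-scaled CPM (log axis) of the 13 mitochondrially encoded subunit genes in each library of N4, T4 and naive, ordered by the N4 mean. Each point is 1 library. The T4 points are lowest for every gene, and the N4 points lie above the T4 points.

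Among nuclear genes the differences varied by complex and by the place of the subunit. The median log2 fold change in N4 against naive was 0.83 over 36 complex I genes, 0.13 over 4 of complex II, 1.07 over 8 of complex III, 1.27 over 17 of complex IV and 0.95 over 17 of complex V. In N4 against T4 the medians were 1.06, 0.46, 1.34, 1.52 and 1.14 in the same order. The 20 nuclear genes for the complex I core, complex II, the Rieske protein, the F1 part and the c ring had a median of 0.36 in N4 against naive and 0.38 in N4 against T4, and the 62 others tested had 1.01 and 1.36. With Uqcrc1 and Uqcrc2, the structural core proteins of complex III, moved to the first set, a regrouping made after seeing the data, the medians were 0.27 and 0.20 over 22 genes and 1.05 and 1.37 over 60. These are descriptions of the log2 fold changes, and the difference between the 2 sets was not tested. Accessory subunits are mostly small proteins with short transcripts. On a scale per transcript length (TPM), the summed level of the 36 complex I nuclear genes was 27464 and 28080 in N4 libraries, 24702 and 25508 in T4 libraries and 20247 and 21251 in naive libraries. The 4 complex II genes summed to 675 and 612 TPM in N4, 849 and 751 TPM in T4 and 674 and 442 TPM in naive libraries, where N4 and naive overlapped and T4 was highest. The sums for complex III (12138 and 12391 TPM in N4, 9587 and 9898 TPM in T4, 7206 and 7677 TPM in naive libraries) kept the order of complex I. For complex IV the sums were 33176 and 35075 TPM in N4, 25272 and 26629 TPM in T4 and 19343 and 21524 TPM in naive libraries, and for complex V they were 24122 and 24861 TPM in N4, 18366 and 19312 TPM in T4 and 14229 and 14914 TPM in naive libraries. TPM is scaled within each library and not by TMM, so its gaps differ from those in CPM, where the complex II sum was 1461 and 1760 in N4 libraries, 1012 and 990 in T4 libraries and 889 and 1117 in naive libraries.

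The 2 naive libraries differed more in these genes than the libraries of the other groups. Over 79 nuclear members averaging 8 CPM or more, the second naive library stood above the first by a median of 1.97-fold and was higher in 66, while the medians were 1.33-fold between the N4 libraries and 1.13-fold between the T4 libraries. Over 6446 genes of that level the median ratio of the second library to the first was 1.07 in N4, 1.00 in T4 and 1.01 in naive. Scaling between libraries centres this median, so it does not measure how far the libraries differed gene by gene. Ratios of single genes ran from 0.14 to 17394 between the naive libraries. Without naive library 2 the nuclear median in N4 against naive was 1.54 and 52 members were called higher. In T4 against naive the nuclear median was 0.33 without naive library 2 and -0.70 without naive library 1. The sign of that median thus depended on 1 library.

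Complex I takes electrons from NADH. Its 29 accessory nuclear subunits had a median log2 fold change of 0.95 in N4 against naive and 1.35 in N4 against T4, whereas the 7 nuclear core subunits, of the matrix arm that holds the flavin and iron-sulfur clusters, had 0.21 and -0.26. The 3 complex I genes that fell in N4 were Ndufs7, Ndufs8 and Ndufb10. Ndufs7 (GRCm38, chr10:80249121-80256794), an iron-sulfur subunit at the quinone site, had 85.5 and 82.2 CPM in N4, 283 and 282 CPM in T4 and 204 and 201 CPM in naive libraries. It fell by 1.27 ± 0.22 on the log2 scale in N4 against naive and by 1.75 ± 0.22 in N4 against T4 (edgeR adjusted p = 0.022 in both). Ndufs8 (chr19:3908863-3912774), which carries 2 clusters on the path to that subunit, had 70.9 and 61.7 CPM in N4, 182 and 174 CPM in T4 and 108 and 91.2 CPM in naive libraries. It fell in N4 against T4 (-1.42 ± 0.23, edgeR adjusted p = 0.029), and in N4 against naive it did not pass (-0.58 ± 0.23, edgeR adjusted p = 0.15). Ndufb10 (chr17:24722060-24724478), an accessory subunit of the membrane arm, had 81.2 and 81.9 CPM in N4, 217 and 225 CPM in T4 and 162 and 190 CPM in naive libraries. It fell in N4 against naive (-1.11 ± 0.22, edgeR adjusted p = 0.032) and in N4 against T4 (-1.44 ± 0.23, edgeR adjusted p = 0.027). In each of these 3 genes the N4 libraries were lowest and the T4 libraries highest, with no overlap. Ndufs8 also had the smallest p of complex I in T4 against naive (0.84 ± 0.23, edgeR adjusted p = 0.20). Ndufa1, an accessory subunit with the highest level per length among nuclear complex I genes in T4 and naive libraries, had 2550 ± 179 TPM in N4, 2050 ± 96.8 TPM in T4 and 1847 ± 265 TPM in naive libraries (SD, n = 2), and its differences did not pass.

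Complex II, succinate dehydrogenase, is shared with the citric acid cycle and has no mitochondrial gene. None of its 4 genes passed the uncorrected test. Sdhd, a membrane anchor with the highest level per length of the 4, had 881 and 1126 CPM in N4, 457 and 457 CPM in T4 and 373 and 548 CPM in naive libraries (N4 against naive 1.12 ± 0.30, edgeR adjusted p = 0.062). It did pass after the GC and length correction, in N4 against naive (1.27, edgeR adjusted p = 0.020) and in N4 against T4 (1.33, edgeR adjusted p = 0.028). Sdhc, the other anchor, had 379 and 460 CPM in N4, 279 and 287 CPM in T4 and 276 and 399 CPM in naive libraries, with N4 and naive overlapping. Sdhb, the iron-sulfur subunit of the catalytic head, had 123 and 89.0 CPM in N4, 208 and 187 CPM in T4 and 124 and 95.8 CPM in naive libraries (T4 against naive 0.84 ± 0.28, edgeR adjusted p = 0.25). Sdha, the flavin subunit of the head, had 78.1 and 84.4 CPM in N4, 68.4 and 59.2 CPM in T4 and 116 and 74.2 CPM in naive libraries. T4 was lowest for Sdha and highest for Sdhb, and N4 and naive overlapped for both.

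Complex III passes electrons from ubiquinol to cytochrome c. Uqcrfs1 (chr13:30540308-30545362), its Rieske iron-sulfur protein, had 792 and 921 CPM in N4, 298 and 285 CPM in T4 and 282 and 379 CPM in naive libraries. It rose in N4 against naive (1.37 ± 0.27, edgeR adjusted p = 0.029) and in N4 against T4 (1.56 ± 0.27, edgeR adjusted p = 0.032), the N4 libraries lying apart while T4 and naive overlapped. The 5 small subunits had a median of 1.17 in N4 against naive and 1.37 in N4 against T4, with none called in the uncorrected test. After the GC and length correction Uqcr10 rose in N4 against naive (1.56, edgeR adjusted p = 0.038) and Uqcrq in N4 against T4 (1.83, edgeR adjusted p = 0.049). Uqcr10, with the highest level per length among nuclear complex III genes in N4 libraries, had 3596 ± 209 TPM in N4, 2408 ± 96.2 TPM in T4 and 1745 ± 143 TPM in naive libraries (SD, n = 2). The 2 large core proteins had medians of 0.13 and -0.43. One of them, Uqcrc1, had 112 and 47.4 CPM in N4, 155 and 125 CPM in T4 and 109 and 42.9 CPM in naive libraries, and its N4 and naive libraries overlapped.

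Complex IV, cytochrome c oxidase, has subunits that exist as paralogs with different tissue use, and the largest fold changes among well-measured members were in 2 of these. Cox7a1 (chr7:30184144-30186078), the heart and skeletal muscle form, had 16.9 and 23.4 CPM in N4, 3.48 and 2.73 CPM in T4 and 1.49 and 2.92 CPM in naive libraries. It rose 9.12-fold in N4 against naive (3.19 ± 0.43 on the log2 scale, edgeR adjusted p = 0.013) and 6.48-fold in N4 against T4 (2.70 ± 0.42, edgeR adjusted p = 0.027). Its widely expressed paralog Cox7a2 had 2658 and 3678 CPM in N4, 809 and 953 CPM in T4 and 652 and 1482 CPM in naive libraries. Cox7a2 did not pass the uncorrected test (1.57 ± 0.45 in N4 against naive, edgeR adjusted p = 0.074). After the GC and length correction Cox7a2 rose in N4 against naive (1.69, edgeR adjusted p = 0.029) and against T4 (1.99, edgeR adjusted p = 0.029). Per transcript length Cox7a1 made up 1.05% and 1.05% of the pair in N4 libraries, 0.709% and 0.473% in T4 libraries and 0.381% and 0.329% in naive libraries. The groups did not overlap in this share, and Cox7a1 remained a small part of the pair in every library.

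Cox6b2 (chr7:4751792-4753094), known as the testis form of subunit VIb, moved the other way. It had 17.5 and 18.8 CPM in N4, 119 and 142 CPM in T4 and 55.9 and 143 CPM in naive libraries. It fell in N4 against naive (-2.45 ± 0.47, edgeR adjusted p = 0.028) and in N4 against T4 (-2.85 ± 0.47, edgeR adjusted p = 0.030), and T4 and naive overlapped. The value against naive was -3.11 without naive library 1 and -1.63 without naive library 2. Its common paralog Cox6b1 had 3793 and 5325 CPM in N4, 1540 and 1811 CPM in T4 and 1171 and 2621 CPM in naive libraries and did not pass the uncorrected test. After the GC and length correction Cox6b1 rose in N4 against naive (1.38, edgeR adjusted p = 0.041) and against T4 (edgeR adjusted p = 0.042). Cox6b2 made up 0.561% and 0.447% of the pair per length in N4 libraries, 8.92% and 9.03% in T4 libraries and 5.69% and 6.45% in naive libraries. The share ran from lowest in N4 through naive to highest in T4, and libraries of a group differed less than the groups did.

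Cox4i2, the lung and hypoxia-linked form of subunit IV, was nearly absent. It was at 0 in both N4 libraries, at 0.02 and 0.08 CPM in T4 and at 0.21 and 0.73 CPM in naive libraries, and was at least 33.3-fold lower in N4 than in naive cells with a floor of 3 counts per library (edgeR adjusted p = 0.044). That bound was 14.7-fold against naive library 1 alone and 51.9-fold against naive library 2 alone. Cox4i2 passed the filter on low counts only through the other groups, so with N4 at 0 its direction in that test was fixed. The common form Cox4i1 had 1264 and 1485 CPM in N4, 1332 and 1454 CPM in T4 and 955 and 1489 CPM in naive libraries, with all 3 groups overlapping. The muscle form Cox6a2 was at 1.52 to 6.06 CPM over the 6 libraries and made up at most 0.195% per length of the pair with Cox6a1, which had 3684 and 4963 CPM in N4, 1826 and 2064 CPM in T4 and 1441 and 3019 CPM in naive libraries. Ndufa4l2, another hypoxia-linked paralog, stayed under 0.2 CPM, while Ndufa4 had 2660 and 3746 CPM in N4, 894 and 1034 CPM in T4 and 835 and 1732 CPM in naive libraries. Cox7a2l, which links complexes III and IV into supercomplexes, had 146 and 182 CPM in N4, 193 and 213 CPM in T4 and 246 and 293 CPM in naive libraries (N4 against naive -0.71 ± 0.25, edgeR adjusted p = 0.12). Neither Ndufa4 nor Cox7a2l passed the uncorrected test, and Ndufa4 rose in N4 against T4 after the GC and length correction (1.20, edgeR adjusted p = 0.041). Cox8a had the highest level per length of all nuclear complex IV genes, with 6366 ± 442 TPM in N4, 4303 ± 196 TPM in T4 and 3599 ± 549 TPM in naive libraries (SD, n = 2), while its paralogs Cox8b and Cox8c were not tested.

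Complex V is the ATP synthase. Atp5f1 (chr3:105942698-105960099), the b subunit of its peripheral stalk, had 817 and 925 CPM in N4, 395 and 397 CPM in T4 and 401 and 498 CPM in naive libraries. It rose in N4 against T4 (1.14 ± 0.25, edgeR adjusted p = 0.049) and did not pass in N4 against naive (0.95 ± 0.25, edgeR adjusted p = 0.060). After the GC and length correction it did pass against naive (1.11, edgeR adjusted p = 0.029). Its exons overlap those of Wdr77 on the opposite strand over 8.21% of their length, which makes its value less certain. The 3 genes for the c ring, the rotor that protons turn, encode the same mature protein. Atp5g1 had 3278 and 4378 CPM in N4, 1621 and 1842 CPM in T4 and 1196 and 2882 CPM in naive libraries. Atp5g2 was lower, at 1052 and 1454 CPM in N4, 404 and 469 CPM in T4 and 355 and 698 CPM in naive libraries. Atp5g3, with the smallest p of complex V in N4 against naive, had 3437 and 4706 CPM in N4, 1227 and 1433 CPM in T4 and 982 and 1842 CPM in naive libraries (1.53 ± 0.39, edgeR adjusted p = 0.057). None of the 3 passed the uncorrected test, though for each of them both N4 libraries lay above all others. After the GC and length correction Atp5g2 rose in N4 against naive (1.64, edgeR adjusted p = 0.038) and against T4 (1.98, edgeR adjusted p = 0.033). Atp5g3 then rose against naive (1.59, edgeR adjusted p = 0.014) and against T4 (edgeR adjusted p = 0.025), and Atp5g1 still did not pass. Per length Atp5g3 took 48.6% and 49.4% of the 3 in N4 libraries, 44.5% and 45.3% in T4 libraries and 48.2% and 42.6% in naive libraries. Among the 5 genes of the F1 head and central stalk the values split. Atp5e, the epsilon subunit, had 1879 and 2714 CPM in N4, 726 and 893 CPM in T4 and 643 and 1398 CPM in naive libraries, whereas Atp5a1, the alpha subunit, had 206 and 166 CPM in N4, 227 and 189 CPM in T4 and 173 and 107 CPM in naive libraries. Neither passed the uncorrected test. For the alpha subunit N4 overlapped each of the other groups, while both T4 libraries lay above both naive ones. Atp5a1 rose in N4 against naive after the GC and length correction (0.89, edgeR adjusted p = 0.027).

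**Figure D4:**
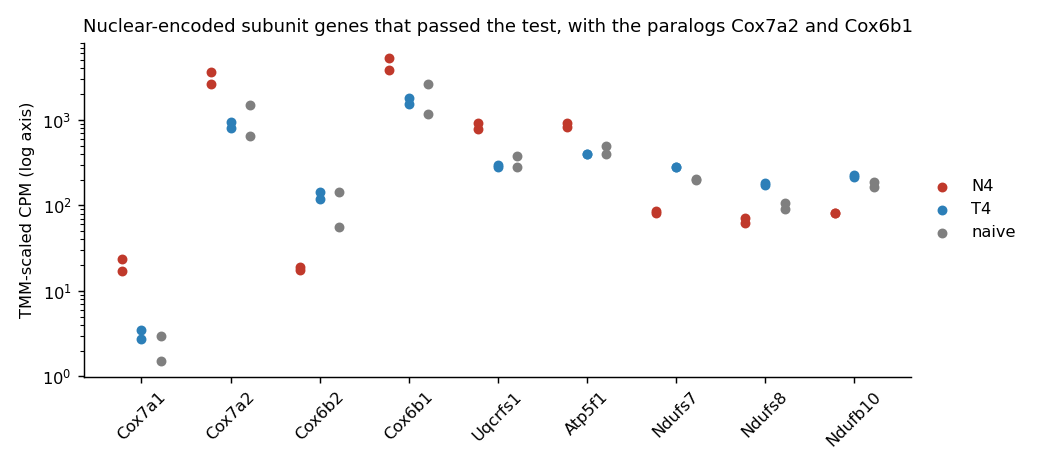
TMM-scaled CPM (log axis) per library of N4, T4 and naive for 7 nuclear-encoded subunit genes that passed the uncorrected test. Cox7a2 and Cox6b1, the common paralogs of Cox7a1 and Cox6b2, are drawn as well and did not pass it. Each point is 1 library, and Cox4i2, at 0 in N4, cannot be drawn on this axis. N4 is highest for Cox7a1, Uqcrfs1 and Atp5f1 and lowest for Cox6b2, Ndufs7, Ndufs8 and Ndufb10.

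Promoters (250 bases before to 50 after a start site, RefSeq, GRCm38.p6) were listed for 69 of 85 nuclear member symbols, as 74 windows. Many respiratory chain genes are known targets of NRF1, of ETS factors such as GABP (NRF2) and of YY1. The letters GCGCATGC (core of the NRF1 motif, both strands) were in 13.5% of these windows, against 3.52% of 21263 windows of protein-coding genes. The ETS core CCGGAAG was in 21.6% against 11.6%, and the YY1 core AAGATGGC was in 13.5% against 3.05%. A match of letters is a description and not a binding site. The windows below are those of called genes with a match, whose matches are in capitals, followed by those of the called isoforms Cox7a1 and Cox6b2, which hold none of the 3. Ndufs7 (chr10:80249199-80249498, plus strand) and Atp5f1 (chr3:105959214-105959513, minus strand) hold the YY1 letters, the second as the reverse complement. Ndufs8 (chr19:3912725-3913024, minus strand) holds the ETS letters as the reverse complement. None of these matches overlaps another. Cox7a1 is at chr7:30183921-30184220 on the plus strand and Cox6b2 at chr7:4753045-4753344 on the minus strand. Members that rose and members that fell are both among those with a match, and Uqcrfs1 and Ndufb10 hold none of the 3 motifs.
Ndufs7: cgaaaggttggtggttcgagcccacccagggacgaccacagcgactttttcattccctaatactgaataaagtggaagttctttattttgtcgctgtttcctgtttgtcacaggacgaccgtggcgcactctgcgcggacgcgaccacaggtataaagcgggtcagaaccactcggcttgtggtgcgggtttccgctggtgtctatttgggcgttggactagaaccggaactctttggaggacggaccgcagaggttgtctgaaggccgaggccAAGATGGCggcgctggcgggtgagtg
Atp5f1: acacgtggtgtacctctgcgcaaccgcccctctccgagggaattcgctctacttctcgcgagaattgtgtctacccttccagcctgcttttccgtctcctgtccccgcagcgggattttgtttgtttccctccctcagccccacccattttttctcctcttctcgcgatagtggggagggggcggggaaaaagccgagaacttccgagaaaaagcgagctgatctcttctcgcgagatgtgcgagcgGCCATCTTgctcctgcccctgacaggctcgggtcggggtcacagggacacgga
Ndufs8: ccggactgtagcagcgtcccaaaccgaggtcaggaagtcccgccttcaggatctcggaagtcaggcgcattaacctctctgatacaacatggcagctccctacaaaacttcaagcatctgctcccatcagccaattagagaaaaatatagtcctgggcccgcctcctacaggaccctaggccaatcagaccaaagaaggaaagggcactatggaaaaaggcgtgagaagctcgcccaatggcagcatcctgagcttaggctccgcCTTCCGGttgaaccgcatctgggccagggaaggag
Cox7a1: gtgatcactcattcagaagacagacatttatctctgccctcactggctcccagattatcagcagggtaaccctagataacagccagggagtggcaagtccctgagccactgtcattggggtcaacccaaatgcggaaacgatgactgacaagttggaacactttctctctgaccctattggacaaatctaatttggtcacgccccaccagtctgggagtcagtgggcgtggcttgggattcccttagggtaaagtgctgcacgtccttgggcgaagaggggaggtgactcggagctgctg
Cox6b2: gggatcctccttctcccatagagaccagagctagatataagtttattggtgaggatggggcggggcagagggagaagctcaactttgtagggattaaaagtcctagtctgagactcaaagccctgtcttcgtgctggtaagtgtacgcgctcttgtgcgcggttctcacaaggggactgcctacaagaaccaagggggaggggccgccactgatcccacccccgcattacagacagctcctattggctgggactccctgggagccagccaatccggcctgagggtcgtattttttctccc

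The fold changes of nuclear members varied with the GC content and length of their transcripts. Over 78 members whose log2 CPM averaged 3 or more, Spearman's rho between the log2 fold change and GC content was -0.42 in N4 against naive, 0.27 in T4 against naive and -0.41 in N4 against T4. Over 5190 protein-coding genes of that level it was -0.37, 0.18 and -0.45. These are descriptions across genes that share the same libraries. The 26 members of lowest GC content (41.9% to 49.1%) had a median of 1.52 in N4 against T4, the middle 26 had 1.27 and the 26 of highest GC content (53.8% to 60.6%) had 0.48. With transcript length rho was -0.37, 0.34 and -0.42 over the members, but -0.01, 0.07 and -0.03 over all genes. In genes outside the members, the libraries themselves differed by GC content, and the naive libraries differed by transcript length. The median deviation of long genes minus that of short genes (upper and lower tercile, log2 scale) was 0.29 for naive library 1 but -0.34 for naive library 2. Over the N4 and T4 libraries this value ran from -0.105 to 0.086. The part of this length gap in the comparisons with naive cells was not tested. The median deviation of GC-rich genes minus that of GC-poor genes (upper and lower tercile) was -0.45 and -0.94 in N4, 0.52 and 0.42 in T4 libraries and 0.44 and 0.00 in naive libraries, on the log2 scale.

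After a correction for GC content and length within each library, chosen after seeing these values, the nuclear median was 0.99 in N4 against naive and 1.09 in N4 against T4, close to the uncorrected values. In N4 against naive 24 members then rose and 4 fell by the same test, where 7.74% of all genes were called higher and 7.56% lower. The 24 were all nuclear, 10 of them from complex V, 7 from complex IV, 4 from complex I, 2 from complex III and 1 from complex II, and the 4 that fell were again Ndufs7, Ndufb10, Cox6b2 and Cox4i2. Cox5a, a subunit of complex IV near the catalytic core, was one of the 24, with 2133 and 3120 CPM in N4, 711 and 799 CPM in T4 and 547 and 1150 CPM in naive libraries and a corrected log2 fold change of 1.60 ± 0.28 (edgeR adjusted p = 0.020). In N4 against T4, 32 rose and 4 fell, with 6.15% and 4.23% of all genes called. The corrected median of the mitochondrial genes was nearer to 0 in each comparison, at 0.14 in N4 against naive, -0.61 in T4 against naive and 0.96 in N4 against T4. Of the 13, 5 were called in N4 against T4 after it, mt-Nd1, mt-Nd4, mt-Nd5, mt-Cytb and mt-Co2. Their transcripts hold 31.9% to 41.1% GC, below all nuclear members (41.9% to 60.6%).

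**Figure D5:**
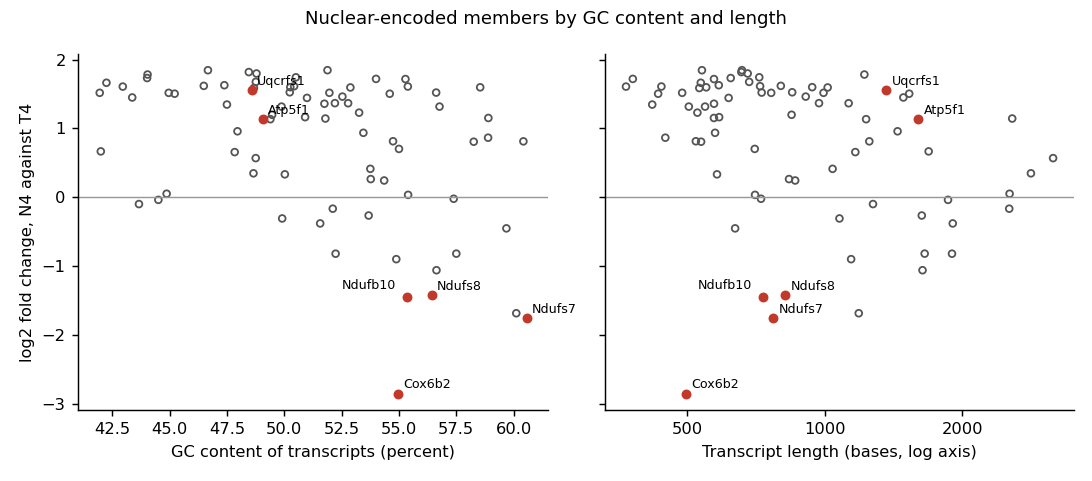
Log2 fold change in N4 against T4 (vertical axis) of 78 nuclear-encoded members against the GC content of their transcripts in percent (left) and their transcript length in bases on a log axis (right). Each point is 1 gene and filled points passed the test. The fold changes decline with GC content (Spearman's rho -0.41) and with length (-0.42), and the genes that fell lie in the upper range of GC content.

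Genes that build or serve the complexes were called in counts of 0 to 4 per list and direction. In N4 against naive, where 4.87% of all genes rose, the share that rose was 8.0% of assembly factors, 3.57% of gene expression, 3.85% of ribosome, 18.2% of carrier and 20% of regulator genes. Against T4, where 3.48% of all genes rose in N4, the shares were 6.0%, 10.7%, 3.85%, 27.3% and 6.67% in the same order. The share of all genes that fell was 7.18% against naive and 4.47% against T4. In the lists it was 2.0%, 3.57%, 0%, 0% and 0% against naive, in that order. Against T4 it was 2.0%, 3.57%, 5.13%, 9.09% and 6.67%. Of citric acid cycle genes 0% rose in either comparison, while 0% fell against naive and 6.25% against T4. In short lists 1 gene weighs much, 9.09% of the carriers and 6.67% of the regulators. Of 50 assembly factors, 4 rose and 1 fell in N4 against naive (median 0.37) and 3 rose and 1 fell in N4 against T4 (median 0.55). Tmem126a, a complex I assembly factor, had 393 and 512 CPM in N4, 109 and 118 CPM in T4 and 80.4 and 150 CPM in naive libraries, and rose by 1.97 against naive (edgeR adjusted p = 0.026) and 2.00 against T4 (edgeR adjusted p = 0.035). Coa4, a complex IV assembly factor, fell in both (-1.10 and -1.34), and Nubpl (1.57) and Tmem126b (1.51), which serve complex I assembly, rose in N4 against T4. Of 28 genes for mitochondrial gene expression, 1 rose and 1 fell against naive (median 0.13) and 3 rose and 1 fell against T4 (median 0.06). Fastkd3, which acts on mitochondrial mRNAs, had 31.5 and 36.0 CPM in N4, 11.3 and 12.2 CPM in T4 and 8.30 and 7.45 CPM in naive libraries, with a log2 fold change of 2.10 against naive (edgeR adjusted p = 0.0096). Hsd17b10, a subunit of mitochondrial RNase P, fell in both comparisons (-1.13 and -1.29). Mterf3 (1.24), a regulator of mitochondrial transcription and ribosome assembly, and Ssbp1 (1.47), the single-stranded DNA-binding protein of mitochondrial replication, rose against T4.

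Of 78 mitochondrial ribosome genes, 3 rose and 0 fell by edgeR in N4 against naive (27 at an unadjusted p under 0.05, median 0.18), and 3 rose and 4 fell in N4 against T4 (median -0.16). Each of these shares was near or below that of all genes. Mrpl1 rose in both (1.35 and 1.60), Mrps6 rose against naive (1.44), and Mrps11 (-1.57) and Mrps18a (-1.64) fell against T4. Of 16 citric acid cycle genes, edgeR called 0 in N4 against naive (1 at an unadjusted p under 0.05, median 0.16), and in N4 against T4 only Suclg1, of succinyl-CoA ligase, fell (-1.12, median of the 16 -0.25). The differences of Dld (1.04), Idh3b (-0.92) and Pdhb (-0.66) against T4 did not pass. Of 11 electron and nucleotide carriers, 2 rose against naive (median 0.35) and 3 rose and 1 fell against T4 (median 0.15). Cycs, cytochrome c, had 2089 and 2554 CPM in N4, 601 and 651 CPM in T4 and 477 and 1008 CPM in naive libraries and rose against T4 (1.89, edgeR adjusted p = 0.047). Slc25a4, an ADP/ATP carrier, rose in both (1.07 and 1.43). Etfa and Etfb, the 2 subunits of the electron transfer flavoprotein, parted, with 1.47 for Etfa, which rose, and -1.52 for Etfb, which fell, in N4 against T4.

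Of 15 regulators tested, Gabpa, Sirt1 and Hif1a rose in N4 against naive, while the median of the list was -0.21. Gabpa, the DNA-binding subunit of GABP, had 20.1 and 26.0 CPM in N4, 6.85 and 7.58 CPM in T4 and 6.85 and 2.94 CPM in naive libraries (2.23 in N4 against naive, edgeR adjusted p = 0.031). Its exons overlap those of Atp5j on the opposite strand over 397 bases, and Atp5j, a peripheral stalk subunit, had 2968 and 4106 CPM in N4, 1003 and 1111 CPM in T4 and 780 and 1592 CPM in naive libraries. Without strand marking the reads of the 2 genes cannot be told apart there, so the Gabpa value is uncertain. Sirt1, a deacetylase, rose by 1.62, and Hif1a, the hypoxia factor subunit, by 1.49. In N4 against T4 Hif1a rose (1.64) and Sirt3, the mitochondrial deacetylase, fell (-1.15). None of these 6 lists had a gene called by edgeR in T4 against naive, where 3, 3, 4, 4, 2 and 0 genes of the assembly, gene expression, ribosome, citric acid cycle, carrier and regulator lists had an unadjusted p under 0.05.

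In a test of transcript usage (edgeR diffSpliceDGE, Simes p-values, Benjamini-Hochberg adjusted), 72 members could be tested. None was called in N4 against naive or in T4 against naive, where 4 and 6 members had an unadjusted p under 0.05, and 0.808% and 0.269% of all genes were called. In N4 against T4, 11 had an unadjusted p under 0.05 and 1 was called, Atp5j (adjusted p = 0.047), against 1.05% of all genes. The main coding transcript of Atp5j took 58.6% and 58.1% of its counts in N4 libraries, 60.0% and 61.8% in T4 libraries and 57.9% and 57.4% in naive libraries. A transcript with a retained intron took 29.5% and 29.0% in N4 libraries, 27.9% and 29.5% in T4 libraries and 25.5% and 32.1% in naive libraries. The N4 and T4 libraries were close in both shares, and those of the retained intron overlapped. The shares of other members varied more. Of 31 members with more than 1 main transcript, 13 had one whose share spanned over 10 percentage points across the 6 libraries. The transcript Atp5g1-202 took 59.6% and 58.3% of Atp5g1 counts in N4 libraries, 51.1% and 49.8% in T4 libraries and 39.8% and 44.1% in naive libraries, without overlap. Atp5d-201 took 86.1% and 12.2% of Atp5d counts in N4 libraries, 25.8% and 32.5% in T4 libraries and 10.8% and 86.5% in naive libraries, so that libraries of a group differed more than the groups. Neither gene was called. Over the nuclear members, transcripts annotated as protein-coding held 96.3% to 96.7% of counts, and those with retained introns held 1.93% to 2.35%.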

How the data were processed

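The 6 libraries were made from polyadenylated RNA with the SMARTer ultra-low input kit (per the labels' protocols). Genome build mm39 and, in no stated role, DESeq2 1.30.1, R 4.0.5, SAMtools 1.9, STAR 2.7.1a and StringTie 2.1.0 are listed, per the submitters' processing notes. The deposited values are estimated counts per gene and per transcript, whole numbers that the authors did not normalize, so that no rounding was needed. Library totals ran from 269033066 to 335968843. The sources used here do not give the annotation release, the strand setting or how these totals relate to reads. The number of unused columns of per-sample values was 0. GENCODE M21 (GRCm38) gave symbols for 52081 gene identifiers (94.0%) and models for 138292 transcripts (97.1%), and so all coordinates, lengths and GC contents. It is another build than that of the counts.

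The members and gene lists were chosen with earlier results of these data known. Gene tests used R 4.3.3 with limma 3.58.1 and edgeR 4.0.16, with TMM scaling, filterByExpr, the quasi-likelihood test over all 6 libraries and Benjamini-Hochberg adjustment over 23003 genes at 0.05. DESeq2 1.42.0 was an alternative. CPM are scaled by TMM, except the marker sums, which are scaled by library size alone. TPM are the counts of each transcript over its own length, summed per gene and scaled to the same total in each library. Transcript usage was tested with diffSpliceDGE. The procedures were tested on simulated data. Libraries of 1 group differed beyond sampling noise (chi-square over degrees of freedom 297 in N4, 96.7 in T4 and 1884 in naive), so none was a copy of the same counts. This value assumes counts of reads, and these are estimated counts, so it cannot tell technical from biological replicates. Whether replicates are separate mice is not in the labels, so p-values cover only the spread between libraries, possibly technical. The SE and SD values cover that spread between libraries, and the floor covers counting error only.

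Named were all mitochondrial genes, every nuclear member called in any comparison, for each complex the nuclear gene of highest level per length (mean of the 3 groups) and that of smallest p in each comparison, the paralog groups, and up to 4 genes of smallest p per list. Cox5a and Atp5j were named after their values were seen. The exons of 41 members overlap another gene, and 33 of these overlap a protein-coding one. Members with near-identical pseudogene copies may share reads with them. In the alternatives, scaling, filter, test, libraries and a GC and length correction were changed one at a time.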

Additional observations from a re-analysis of the deposited data

How the results depend on the processing

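With 2 libraries a group, calls depend on the shared spread. Of 23 calls of members, 20 remained with DESeq2 size factors, 23 with mitochondrial genes left out of the scaling, 22 without a filter, 23 with DESeq2, 19 with library size scaling, 18 with only the 2 groups compared and 18 with the GC and length correction, and none reversed. Without N4 replicate 1, N4 replicate 2, T4 replicate 1 or T4 replicate 2, 1, 0, 2 and 2 remained. Without either naive library 22 remained.

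In N4 against naive, members called higher (2) numbered 24 with library size scaling, 15 without a filter, 36 with DESeq2, 24 with the GC and length correction, 1 with only the 2 groups compared and 1 in a test against a 1.5-fold change. Those called lower (4) numbered 0 with only the 2 groups and 1 in that test. The mitochondrial median (0.82) was 0.30 with library size scaling and 0.14 with the correction. In T4 against naive, 1 member was higher without a filter and 1 with DESeq2, which called 6 lower, and the nuclear median (-0.19) reversed to 0.23 with library size scaling. In N4 against T4, members called higher (13) numbered 47 without a filter, 60 with DESeq2, 32 with the correction, 67 with only the 2 groups and 1 in the 1.5-fold test. Those called lower (4) numbered 9 with library size scaling, 7 with DESeq2 and 2 in the 1.5-fold test. With library size scaling the nuclear median (1.18) was 0.30 and the mitochondrial one (1.78) was 0.89, and with the correction the second was 0.96. The log2 ratio of the mitochondrial share in T4 against naive (-0.56) was -0.62 over protein-coding counts and -0.48 per length, and that of the nuclear share in N4 against T4 (0.39) was 0.30 per length. The causes of these shifts were not tested.

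Leaving out 1 library at a time gave 0 to 52 members higher and 0 to 4 lower in N4 against naive, 0 to 0 in both directions in T4 against naive, and 0 to 66 higher and 0 to 6 lower in N4 against T4. The nuclear medians ran from 0.47 to 1.54, from -0.70 to 0.33 (reversed without naive replicate 2) and from 0.96 to 1.34, and the mitochondrial ones from 0.44 to 1.10, from -1.34 to -0.60 and from 1.47 to 2.04. The lone library left in a group was assumed to vary like the others.

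The labels number the replicates, but over all genes tested the deviations of libraries with the same number correlated at only 0.08, 0.04 and 0.02. The numbers were therefore not taken as pairs. Over the 79 nuclear members averaging 8 CPM or more, library 2 was above library 1 in 67 in N4, 63 in T4 and 66 in naive. Of the 13 mitochondrial genes it was above in 13, 9 and 13, in the same order. A correlation over all genes need not show such a shift in the members. Whether libraries of the same number share it was not tested. With a replicate block 37 members were higher in N4 against naive, 54 higher and 7 lower in N4 against T4, and 0 members changed transcript usage, where Atp5j was called without it.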
